A study of Homo sapiens with 6 samples.

Results

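The genes described here are the nuclear-encoded genes of respiratory complexes II, III, IV and V, 48 of the 19330 genes in the deposited count table, listed by name and not by their values. They comprise 4 subunits of complex II, 9 of complex III, 11 of complex IV and 15 of complex V, together with cytochrome c (CYCS), the complex V regulator ATPIF1 and 7 complex IV assembly factors. The complex V genes carry their older ATP5 symbols. RNA sequencing (RNA-Seq) was performed on K562, a human chronic myelogenous leukemia line, in 3 libraries with control sgRNAs (sgCtrl) and 3 with sgRNAs against the methyltransferase gene N6AMT1 (sgN6AMT1). Both groups received Cas9 and an sgRNA from the lentiviral vector pLentiCRISPRv2, were selected with puromycin and were collected on day 10 after infection. The control sgRNAs targeted the olfactory receptor genes named OR11A1 and OR2M49 in the labels, and which sgRNA each library carried is not given in the sources used here. Each library came from its own lentiviral transduction.

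Oxidative phosphorylation passes electrons from NADH and succinate to oxygen and uses the resulting proton gradient to make ATP. Complexes III, IV and V are assembled from proteins of 2 genomes: a few core subunits are encoded by mt-DNA and translated inside mitochondria, and the others are encoded in the nucleus and imported. Complex II, succinate dehydrogenase, also belongs to the citric acid cycle and is the complex built from nuclear-encoded subunits alone. The comparison therefore asks whether the nuclear mRNAs of complex II differed from those of complexes III, IV and V, which also contain mt-DNA-encoded subunits.

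Nuclear genes of oxidative phosphorylation are known as targets of NRF1 and of the ETS family factor GABP, so the promoter letters are shown before the counts. Windows from 250 bases before to 50 bases after the start were present in the RefSeq table (GRCh38.p14) for 38 of the 48 genes, and not for SDHC, UQCRB, CYC1, COX6C, ATP5B, ATP5D, ATP5G3, ATP5J2, COX11 and SCO2. The letters GCGCANGCGC (NRF1 type, either strand) were found in 10 of the 38 (26.3%), compared with 6.98% of the 27305 genes in that table (5.78% of its 35116 windows). The letters CCGGAAG (ETS type, either strand) were found in 20 (52.6%), compared with 12.2% of genes (10.3% of windows), and 4 genes had both and 12 had neither. The 27305 genes were not limited to those expressed in these cells, and no share over the genes tested is given. These are matches of letters, not measured binding. The 3 complex II windows are shown because the contrast turns on them, that of SURF1 because this gene had the smallest p-value of the 48, and that of CYCS because its level was lower in every sgN6AMT1 library. Capitals mark NRF1-type or ETS-type letters, with ETS-type letters on the opposite strand reading CTTCCGG, and each sequence runs 5′ to 3′ on the strand of the gene. SDHA lies at chr5:218070-218369 on the plus strand, SDHB at chr1:17053983-17054282 on the minus strand, SDHD at chr11:112086623-112086922 on the plus strand, SURF1 at chr9:133356438-133356737 on the minus strand and CYCS at chr7:25125211-25125510 on the minus strand.
SDHA: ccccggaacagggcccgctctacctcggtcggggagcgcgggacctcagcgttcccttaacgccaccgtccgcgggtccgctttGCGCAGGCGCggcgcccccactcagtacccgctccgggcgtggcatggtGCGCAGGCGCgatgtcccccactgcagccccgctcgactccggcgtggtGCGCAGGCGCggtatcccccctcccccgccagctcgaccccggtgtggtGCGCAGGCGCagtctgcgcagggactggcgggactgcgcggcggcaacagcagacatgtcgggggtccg
SDHB: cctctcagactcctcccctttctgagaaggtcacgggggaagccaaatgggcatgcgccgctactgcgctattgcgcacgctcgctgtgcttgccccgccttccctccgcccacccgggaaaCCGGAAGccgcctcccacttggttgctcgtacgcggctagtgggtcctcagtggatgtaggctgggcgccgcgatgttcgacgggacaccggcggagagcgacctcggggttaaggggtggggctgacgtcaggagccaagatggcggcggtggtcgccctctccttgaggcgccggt
SDHD: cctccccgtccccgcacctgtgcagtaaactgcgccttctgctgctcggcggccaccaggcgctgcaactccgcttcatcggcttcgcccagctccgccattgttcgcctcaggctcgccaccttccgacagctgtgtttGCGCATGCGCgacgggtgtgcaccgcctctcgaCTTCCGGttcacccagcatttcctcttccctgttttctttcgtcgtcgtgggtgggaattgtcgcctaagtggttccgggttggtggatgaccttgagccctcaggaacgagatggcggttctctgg
SURF1: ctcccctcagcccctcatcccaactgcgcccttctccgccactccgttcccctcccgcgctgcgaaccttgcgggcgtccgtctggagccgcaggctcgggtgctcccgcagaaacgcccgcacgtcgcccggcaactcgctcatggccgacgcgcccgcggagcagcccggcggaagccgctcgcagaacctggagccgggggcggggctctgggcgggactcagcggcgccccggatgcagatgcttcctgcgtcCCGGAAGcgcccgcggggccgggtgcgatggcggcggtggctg
CYCS: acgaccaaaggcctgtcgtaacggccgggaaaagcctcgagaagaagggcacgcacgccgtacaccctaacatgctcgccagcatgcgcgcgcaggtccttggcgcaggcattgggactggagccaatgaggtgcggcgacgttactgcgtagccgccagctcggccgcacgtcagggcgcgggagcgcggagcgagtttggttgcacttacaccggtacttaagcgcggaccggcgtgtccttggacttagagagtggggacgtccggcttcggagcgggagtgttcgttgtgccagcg

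SDHA held 4 NRF1-type matches, SDHB 1 ETS-type match and SDHD 1 of each type, SURF1 held an ETS-type match and CYCS neither. Genes with and without the letters had similar medians of the log2 fold change (sgN6AMT1 over sgCtrl). The median was 0.28 for the 10 genes with NRF1-type letters and 0.19 for the 28 without, and 0.25 for the 20 with ETS-type letters and 0.19 for the 18 without. These medians are descriptions and were not tested.

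Depth differed between the groups. The sgCtrl libraries held between 742470 and 866894 counts and the sgN6AMT1 libraries between 959319 and 5526904. A count of 0 therefore allows 3 counts or up to 0.543 to 4.04 cpm (counts scaled to the size of the library), and such limits cover counting error only. The targeted gene N6AMT1 was read 6, 5 and 9 times with control sgRNAs and 0, 18 and 16 times with its own, which is 8.08, 5.77 and 10.4 cpm against 0 (up to 3.13), 3.26 and 3.94 cpm. Its level was lower in each sgN6AMT1 library, on counts too low for the gene to enter the test. All 7 K562 markers used (HBG1, HBG2, HBE1, GATA1, TAL1, KLF1 and TFRC) had counts in every library, whereas 2 of 7 markers of other cell types did (EPCAM and COL1A1) and MS4A1 had none in any. The summed level of the K562 markers was 10604 to 17755 cpm in sgCtrl and 18143 to 33446 cpm in sgN6AMT1, with the globin genes HBG1, HBG2 and HBE1 higher at an edgeR adjusted p under 0.05, and its part in the results below was not tested. That of the other markers was 145 to 174 cpm in sgCtrl and 103 to 164 cpm in sgN6AMT1. A single marker of other cell types reached 170 cpm in an sgCtrl library, nearly the whole sum there, so these markers were not all absent. In bulk libraries, fewer cells of a type and less RNA per cell cannot be told apart.

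The 48 genes together took 1.28%, 1.33% and 1.44% of the counts in the sgCtrl libraries and 1.43%, 1.44% and 1.46% in the sgN6AMT1 libraries. All 48 passed the filter on low counts. Levels are given as cpm after TMM normalization, and levels of different genes are compared only as cpm per kb of coding length. Leaving out untranslated ends raises the genes with short reading frames on that scale. In sgCtrl, UQCRH, the hinge protein of complex III, was the highest of complex III at 2789 ± 484 cpm per kb (SD, n = 3) and the core protein UQCRC1 the lowest at 143 ± 13.5. In complex IV the range ran from 1581 ± 152 for COX7B to 166 ± 11.6 for COX7A2L, and in complex V from 2307 ± 351 for ATP5E, the epsilon subunit, to 117 ± 53.6 for ATP5D, the delta subunit. In complex II, SDHB was at 379 ± 79.4, SDHD at 188 ± 31.7, SDHA at 102 ± 19.8 and SDHC at 60.3 ± 14.7 cpm per kb. The 7 complex IV assembly factors ranged from 106 ± 25.8 for COX17 to 9.76 ± 3.48 for SURF1.

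**Figure D1:**
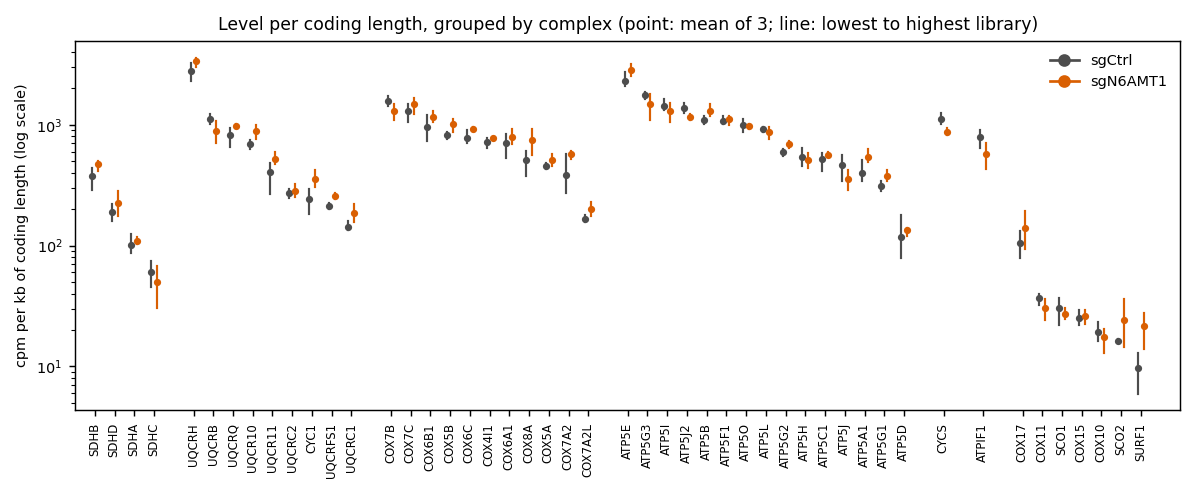
Level of each of the 48 genes in cpm per kb of coding length (log axis), grouped from left to right as complexes II, III, IV and V, CYCS, ATPIF1 and the complex IV assembly factors. Points are means of 3 libraries and lines run from the lowest to the highest library, with sgCtrl in grey and sgN6AMT1 in orange; in sgCtrl the means span from 2789 for UQCRH to 9.76 for SURF1, and the ranges of the groups overlap for most genes.

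None of the 48 genes was called between sgN6AMT1 and sgCtrl (0 at an edgeR adjusted p under 0.05, and 0 with DESeq2). Of all 8324 genes tested, 820 were called (9.85%), 424 of them higher (5.09%) and 396 lower (4.76%). The smallest adjusted p of the 48 was 0.0511, for SURF1. At an unadjusted p under 0.05, 9 of the 48 passed (18.8%), below the share of all genes tested (26.2%), and with DESeq2 8 did. UQCRC1, CYC1, COX5B, COX7A2, COX8A, ATP5A1 and SURF1 were on the higher side and CYCS and ATPIF1 on the lower side. The count of calls was 0 to 4 with each library left out in turn. It was 3 without sgCtrl replicate 3 (ATP5A1, COX7A2 and CYC1), where 752 of all 8626 genes tested were called. It was 4 without sgN6AMT1 replicate 1 (ATPIF1, COX8A, CYC1 and SURF1), where 951 of all 8477 were called. Without a filter on low counts it was 5, with 1201 of all 13874 genes called. After a correction for GC content and length it was 2, with 919 of all 8324 called. With the newer quasi-likelihood method of edgeR it was 1, with 839 of all 8324 called. The precision can be read from the 95% intervals: for 44 of the 48 genes the interval lay within 1 of 0 on the log2 scale, for 18 it lay within a 1.5-fold change, and for COX7A2, COX17, SCO2 and SURF1 it reached past 1.

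The signs were uneven. Of the 48 log2 fold changes, 33 were positive and 15 negative, with a median of 0.20, and over all genes tested 50.8% were positive with a median of 0.01. The groups did not overlap, with sgN6AMT1 higher, for UQCRFS1, UQCRQ, UQCR10, CYC1, COX5B, ATP5B, ATP5G1, ATP5G2 and SURF1. These 9 genes are 18.8% of the 48, and 15.1% of all genes tested showed the same. The groups did not overlap, with sgN6AMT1 lower, for CYCS and ATP5J2. These are 4.17% of the 48, against 14.1% of all genes tested. Both shares are given as counts without a test of the list.

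**Figure D2:**
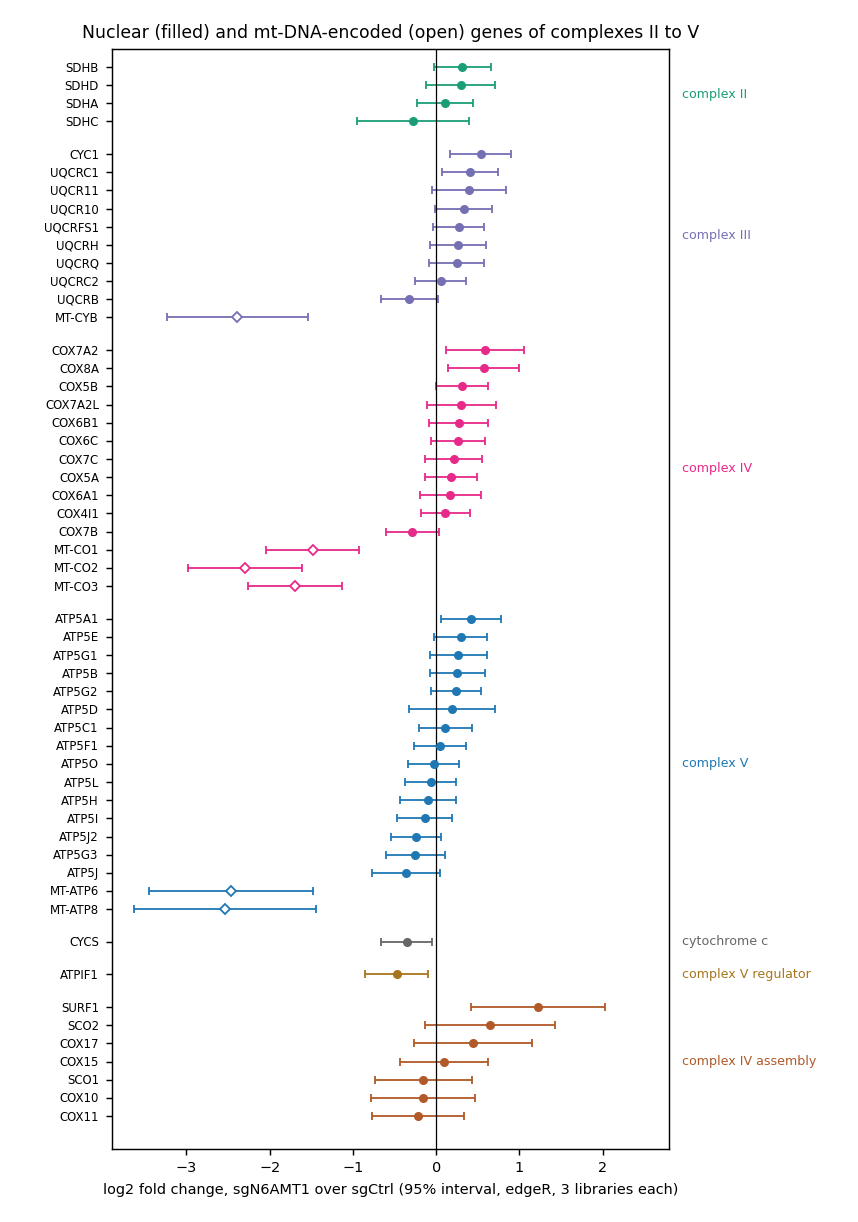
The log2 fold change of sgN6AMT1 over sgCtrl with its 95% interval (edgeR, 3 libraries per group) for each nuclear-encoded gene (filled circles) and each mt-DNA-encoded partner (open diamonds), colored by complex. The nuclear genes sit around 0 from -0.48 for ATPIF1 to 1.22 for SURF1, and the 6 mt-DNA-encoded genes lie between -1.48 and -2.54.

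Complex II oxidizes succinate and hands the electrons to ubiquinone. SDHA, the flavoprotein at chr5:218303-257082 (GRCh38, plus strand), had 247, 172 and 190 cpm in sgCtrl and 204, 213 and 236 cpm in sgN6AMT1. The groups overlapped, with the highest value in an sgCtrl library, and the log2 fold change was 0.11 ± 0.16 (SE, adjusted p = 0.713). SDHB, the iron-sulfur protein at chr1:17018664-17054032 (minus strand), had 242, 366 and 347 cpm in sgCtrl and 422, 349 and 422 cpm in sgN6AMT1. Its low value was sgCtrl replicate 1, the other libraries overlapped, and the log2 fold change was 0.32 ± 0.16 (adjusted p = 0.232). SDHD, a heme-binding membrane anchor at chr11:112086824-112120016 (plus strand), had 87.3, 76.1 and 106 cpm in sgCtrl and 83.2, 108 and 134 cpm in sgN6AMT1, a log2 fold change of 0.30 ± 0.20 (adjusted p = 0.360) with overlapping groups. SDHC, the other anchor at chr1:161314381-161363206 (plus strand), had the fewest counts of any subunit (17 in sgCtrl replicate 1). Its level was 22.8, 31.1 and 37.7 cpm in sgCtrl and 25.3, 34.7 and 15.4 cpm in sgN6AMT1, where replicate 3 alone was low. The log2 fold change of SDHC was -0.28 ± 0.32 (adjusted p = 0.635), and its interval from -0.95 to 0.40 was the widest of the complex. The signs of SDHA and SDHC each rested on 1 library: SDHA was at -0.0072 without sgCtrl replicate 2 and SDHC at 0.029 without sgN6AMT1 replicate 3. Reads of SDHA and SDHD could be shared with annotated genes that overlap their exons on the same strand.

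Complex III passes electrons from ubiquinol to cytochrome c. Of its 9 nuclear-encoded subunits, 8 had a positive log2 fold change (median 0.27) and 0 were called. CYC1, cytochrome c1, had the highest, with 179, 248 and 288 cpm in sgCtrl and 297, 320 and 414 cpm in sgN6AMT1. Every sgN6AMT1 library was above every sgCtrl library, and the log2 fold change was 0.53 ± 0.18 (1.45-fold, edgeR adjusted p = 0.0637). CYC1 passed the threshold without sgCtrl replicate 3 (adjusted p = 0.0414) or without sgN6AMT1 replicate 1 (0.0362), and moved away from it to 0.36 (0.261) without sgCtrl replicate 1, to 0.38 (0.171) without sgN6AMT1 replicate 3 and to 0.35 (0.165) after a correction for GC content and length. The core protein UQCRC1 had 228, 195 and 195 cpm in sgCtrl and 227, 263 and 321 cpm in sgN6AMT1, where replicate 1 was within the sgCtrl range, and its log2 fold change was 0.40 ± 0.16 (adjusted p = 0.116). UQCRB, a small ubiquinone-binding subunit, was the member below 0, with 337, 359 and 408 cpm in sgCtrl and 357, 300 and 234 cpm in sgN6AMT1 (log2 fold change -0.32 ± 0.16, adjusted p = 0.222). UQCRH had 622, 776 and 885 cpm in sgCtrl and 982, 949 and 814 cpm in sgN6AMT1 (log2 fold change 0.26). The Rieske iron-sulfur protein UQCRFS1 had 164, 186 and 179 cpm in sgCtrl and 198, 212 and 226 cpm in sgN6AMT1, without overlap (log2 fold change 0.27 ± 0.15, adjusted p = 0.255). Among the others, UQCR11 was at 0.40, UQCR10 at 0.33, UQCRQ at 0.25 and the core protein UQCRC2 at 0.06.

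The mt-DNA-encoded partner of complex III is MT-CYB, cytochrome b, which had 2915, 2508 and 1919 cpm in sgCtrl and 978, 280 and 173 cpm in sgN6AMT1. It fell by 2.39 on the log2 scale (edgeR adjusted p = 0.00164), with no overlap between the groups, and was at -3.43 without sgN6AMT1 replicate 1 and at -1.99 without replicate 3. The upper bound of its interval was -1.54, and the lowest lower bound of the 9 nuclear-encoded subunits was -0.66. The ratio of summed nuclear to mt-DNA-encoded counts in complex III was 0.763, 1.01 and 1.46 in sgCtrl and 2.99, 10.2 and 17.2 in sgN6AMT1. The ratio depends on gene lengths and is read only between libraries. While the mt-DNA-encoded part of the ratio fell, the sum of the nuclear part was 2523 ± 292 cpm in sgCtrl and 2919 ± 65.4 cpm in sgN6AMT1 (SD, n = 3).

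CYCS, the mobile electron carrier between complexes III and IV, had 317, 341 and 390 cpm in sgCtrl and 264, 297 and 258 cpm in sgN6AMT1. All 3 sgN6AMT1 values lay below the lowest sgCtrl value, and the log2 fold change was -0.35 ± 0.15 (adjusted p = 0.125). Its sign was opposite to that of CYC1, the subunit that hands it electrons.

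Complex IV, cytochrome c oxidase, reduces oxygen to water. Of its 11 nuclear-encoded subunits, 10 had a positive log2 fold change (median 0.26), again with 0 called. COX7A2, a small membrane subunit, had 72.6, 68.1 and 144 cpm in sgCtrl and 130, 145 and 151 cpm in sgN6AMT1. Here sgCtrl replicate 3 lay within the sgN6AMT1 range, and the log2 fold change was 0.59 ± 0.22 (adjusted p = 0.0989), or 1.02 without that library and 0.38 without sgCtrl replicate 2. COX8A, a small membrane subunit, had 116, 78.5 and 126 cpm in sgCtrl and 116, 161 and 189 cpm in sgN6AMT1, a log2 fold change of 0.57 ± 0.20 (1.48-fold, adjusted p = 0.0790) with overlapping groups, or 0.37 without sgCtrl replicate 2. COX5B, which binds zinc on the matrix side, had 294, 320 and 335 cpm in sgCtrl and 413, 338 and 428 cpm in sgN6AMT1. The COX5B groups were apart by the narrow gap between 335 and 338, and the log2 fold change was 0.31 ± 0.15 (adjusted p = 0.186). COX7B was the member below 0, with 341, 383 and 414 cpm in sgCtrl and 359, 316 and 263 cpm in sgN6AMT1 (log2 fold change -0.29 ± 0.15, adjusted p = 0.240). The other 7 lay between 0.11 and 0.30: COX4I1 at 0.11, COX6A1 at 0.17, COX5A at 0.18, COX7C at 0.21, COX6C at 0.26, COX6B1 at 0.27 and COX7A2L, which also takes part in joining complexes III and IV, at 0.30.

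The mt-DNA-encoded core of complex IV consists of MT-CO1, MT-CO2 and MT-CO3, which hold the redox centers or stabilize them. MT-CO1 had 10518, 9332 and 6559 cpm in sgCtrl and 4811, 2840 and 1813 cpm in sgN6AMT1 and fell by 1.48 on the log2 scale (edgeR adjusted p = 0.00238). MT-CO2 had 5276, 4524 and 3224 cpm against 1531, 754 and 385 cpm and fell by 2.30 (adjusted p = 3.67e-04). MT-CO3 had 8603, 7641 and 4876 cpm against 3115, 2239 and 1173 cpm and fell by 1.70 (adjusted p = 0.00102). For all 3 the groups did not overlap. The highest upper bound of these intervals was -0.93, below the lowest lower bound of the 11 nuclear-encoded subunits, -0.61. The ratio of summed nuclear to mt-DNA-encoded counts was 0.0931, 0.108 and 0.182 in sgCtrl and 0.279, 0.464 and 0.859 in sgN6AMT1.

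**Figure D3:**
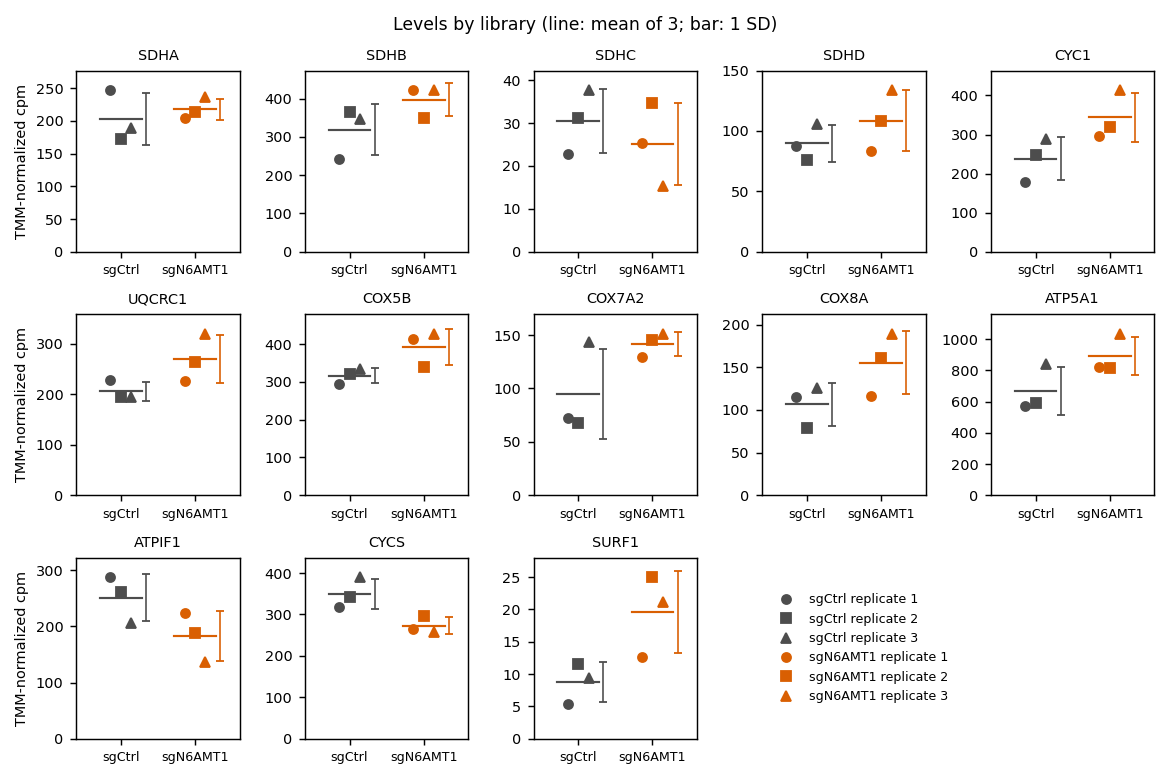
TMM-normalized cpm in each library for the 4 complex II subunits and for the 9 genes with an unadjusted p under 0.05, with symbols for replicates, a line at the mean of 3 libraries and a bar of 1 SD beside it. The y axes start at 0 and differ between panels; CYC1, COX5B, CYCS and SURF1 are the panels in which the groups do not overlap.

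Complex V, ATP synthase, turns the proton gradient into ATP. Its 15 nuclear-encoded subunits were split in sign, 8 positive and 7 negative, with a median log2 fold change of 0.05 and 0 called. They are set out by the usual division of the enzyme, which was applied with these values known and was not tested. All 5 subunits of the catalytic F1 part were positive, with a median of 0.26, whereas 3 of the 10 subunits of the membrane part and peripheral stalk were, with a median of -0.08. In F1, ATP5A1, the alpha subunit, had 570, 591 and 843 cpm in sgCtrl and 824, 819 and 1037 cpm in sgN6AMT1. Only sgCtrl replicate 3 reached into the sgN6AMT1 range, and the log2 fold change was 0.42 ± 0.17 (adjusted p = 0.124). ATP5E had 320, 324 and 415 cpm in sgCtrl and 486, 385 and 433 cpm in sgN6AMT1 (log2 fold change 0.29 ± 0.15, adjusted p = 0.232). The beta subunit ATP5B was at 0.26 with 1692, 1617 and 1858 cpm in sgCtrl and 1920, 1886 and 2361 cpm in sgN6AMT1, without overlap, ATP5D was at 0.20 and the gamma subunit ATP5C1 at 0.11. The summed level of the 5 F1 genes was 3269 ± 347 cpm in sgCtrl and 3955 ± 386 cpm in sgN6AMT1, and that of the other 10 was 3963 ± 171 and 3776 ± 174 cpm (SD, n = 3).

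The peripheral stalk holds the F1 part still while the rotor turns. Of its 4 genes, ATP5J had the lowest value of complex V, with 155, 182 and 112 cpm in sgCtrl and 117, 138 and 94.1 cpm in sgN6AMT1 (log2 fold change -0.36 ± 0.19, adjusted p = 0.243) and overlapping groups. ATP5H was at -0.09, ATP5O at -0.03 and ATP5F1 at 0.05. In the membrane part, ATP5J2 had 351, 391 and 426 cpm in sgCtrl and 346, 333 and 311 cpm in sgN6AMT1, below every sgCtrl library (log2 fold change -0.24 ± 0.14, adjusted p = 0.290). ATP5I was at -0.14 and ATP5L at -0.07.

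Subunit c, whose copies form the rotor ring, is encoded by 3 genes whose mature proteins are the same, and these did not share a sign. ATP5G3 was the highest per kb of coding length in sgCtrl, at 1752 ± 114 cpm per kb, followed by ATP5G2 at 592 ± 39.9 and ATP5G1 at 312 ± 29.9. The annotated canonical transcript is 2587 bases for ATP5G3, against 632 for ATP5G2 and 646 for ATP5G1. This ranking and the shares of counts below may therefore depend on transcript length. ATP5G3 had 794, 749 and 697 cpm in sgCtrl and 639, 772 and 470 cpm in sgN6AMT1 (log2 fold change -0.25 ± 0.17, adjusted p = 0.371), with replicate 2 within the sgCtrl range. ATP5G1 had 140, 115 and 127 cpm in sgCtrl and 143, 141 and 174 cpm in sgN6AMT1 (log2 fold change 0.27 ± 0.16, adjusted p = 0.314). ATP5G2 had 269, 235 and 248 cpm in sgCtrl and 274, 300 and 311 cpm in sgN6AMT1 (log2 fold change 0.24 ± 0.14, adjusted p = 0.295). Neither of the latter overlapped between groups, but the gaps were narrow, between 140 and 141 cpm for ATP5G1 and between 269 and 274 cpm for ATP5G2. Of the counts on the 3 genes, ATP5G3 took 66.0%, 68.1% and 65.0% in sgCtrl and 60.5%, 63.6% and 49.3% in sgN6AMT1. All 3 shares in sgN6AMT1 were below those in sgCtrl, with replicate 3 the lowest. An exact two-sided permutation test gives p = 0.10 for groups of 3 that do not overlap, which is the smallest p it can give.

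**Figure D4:**
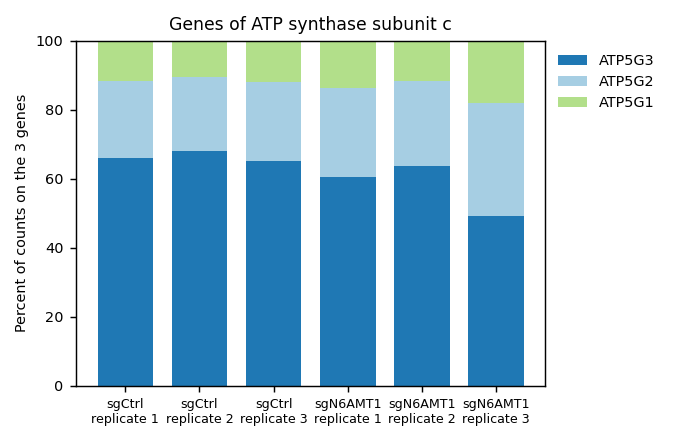
Percent of the counts on ATP5G1, ATP5G2 and ATP5G3 that fell on each gene, in each of the 6 libraries (stacked bars from 0 to 100%). The share of ATP5G3 lies between 65.0% and 68.1% in sgCtrl and between 49.3% and 63.6% in sgN6AMT1.

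ATPIF1 encodes the inhibitor that keeps ATP synthase from running backward. It had 288, 261 and 205 cpm in sgCtrl and 223, 189 and 136 cpm in sgN6AMT1, with sgN6AMT1 replicate 1 above the lowest sgCtrl library. The log2 fold change was -0.48 ± 0.18 (adjusted p = 0.105), and ATPIF1 passed the threshold without sgN6AMT1 replicate 1 but was at -0.30 (adjusted p = 0.291) without sgN6AMT1 replicate 3. The mt-DNA-encoded partners of complex V, MT-ATP6 and MT-ATP8, were both called. On the log2 scale MT-ATP6 fell by 2.47 (edgeR adjusted p = 0.00376) and MT-ATP8 fell by 2.54 (adjusted p = 0.00642). Without sgN6AMT1 replicate 1 the values were -3.80 and -4.03. With DESeq2 neither passed (adjusted p = 0.0790 and 0.136), nor did MT-ATP8 with the deep libraries thinned (0.0529), and the reading frames of both overlap. MT-ATP8 had 714, 557 and 475 cpm in sgCtrl and 277, 43.8 and 26.7 cpm in sgN6AMT1, and MT-ATP6 had 4234, 3378 and 2790 cpm in sgCtrl and 1422, 312 and 185 cpm in sgN6AMT1, where replicate 1 stood between the sgCtrl libraries and the other sgN6AMT1 libraries. The ratio of summed nuclear to mt-DNA-encoded counts in complex V was 1.39, 1.78 and 2.40 in sgCtrl and 4.45, 21.4 and 37.9 in sgN6AMT1.

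The contrast of complex II with complexes III, IV and V did not separate the groups. The median log2 fold change was 0.20 over the 4 subunits of complex II and 0.24 over the 35 subunits of complexes III, IV and V, a difference of -0.04. The pooled complexes were not alike, with medians of 0.27 for III and 0.26 for IV, above complex II, and 0.05 for V, below it. Relative to the sgCtrl mean of each gene, the complex II median was -0.20, -0.08 and 0.20 in the sgCtrl libraries and -0.03, 0.18 and 0.33 in the sgN6AMT1 libraries, so the groups overlapped. That of complex III was -0.15, 0.04 and 0.15 against 0.24, 0.27 and 0.36, without overlap. That of complex IV was -0.10, -0.03 and 0.22 against 0.15, 0.25 and 0.33, and that of complex V was -0.07, -0.07 and 0.13 against 0.08, 0.10 and 0.10. For complex IV, sgCtrl replicate 3 was above sgN6AMT1 replicate 1 alone, and for complex V it was above every sgN6AMT1 library. Taken within each library, complex II minus complexes III to V was -0.10, -0.07 and 0.07 in sgCtrl and -0.18, 0.04 and 0.03 in sgN6AMT1, which is -0.03 ± 0.09 and -0.03 ± 0.12 (SD, n = 3). The sign of the difference turned with some settings, for example to 0.010 after correction for GC content and length. These medians over genes are descriptions without a p. Over the libraries left out in turn, the median of complex II lay between 0.09 and 0.22 and that of complex V between -0.03 and 0.08, the negative value being without sgCtrl replicate 1.

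**Figure D5:**
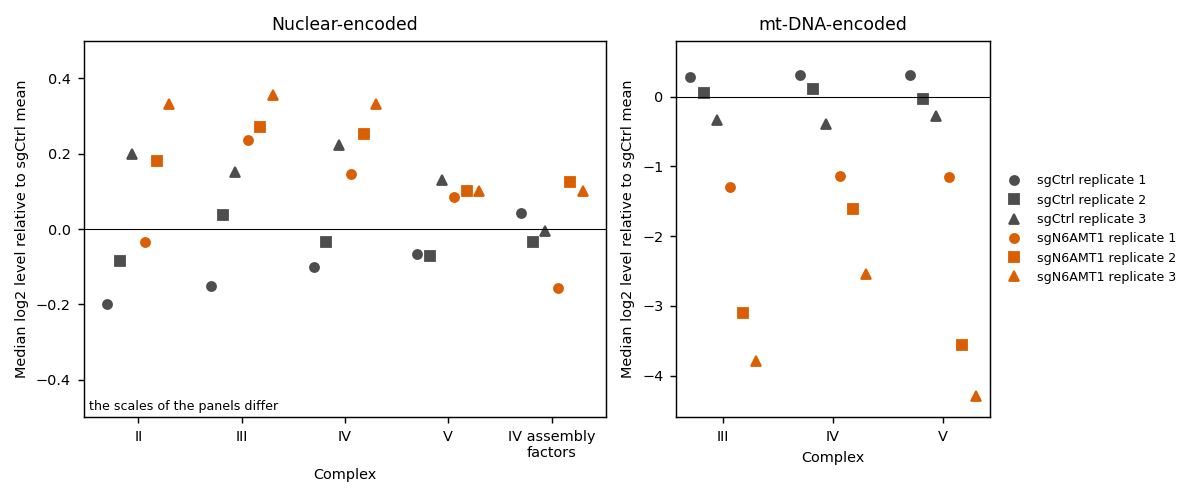
Median over the genes of each complex of the log2 level relative to the sgCtrl mean, 1 point per library, for nuclear-encoded genes (left) and mt-DNA-encoded genes (right); the scales of the panels differ. The nuclear medians lie between -0.20 and 0.36 in all libraries, and the mt-DNA-encoded medians of the sgN6AMT1 libraries lie between -1.14 and -4.29.

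Within each group, libraries with higher nuclear medians had lower mt-DNA-encoded levels in complexes III and IV. For complex III in sgCtrl, the nuclear medians of -0.15, 0.04 and 0.15 went with MT-CYB at 0.27, 0.06 and -0.33. In sgN6AMT1 its medians of 0.24, 0.27 and 0.36 went with -1.30, -3.10 and -3.79. For complex IV in sgCtrl, nuclear medians of -0.10, -0.03 and 0.22 went with mt-DNA-encoded medians of 0.31, 0.11 and -0.40. In sgN6AMT1 those of 0.15, 0.25 and 0.33 went with -1.14, -1.61 and -2.54. Complex V did not show this order clearly. Its nuclear medians of -0.07, -0.07 and 0.13 in sgCtrl went with mt-DNA-encoded medians of 0.31, -0.03 and -0.28. Those of 0.08, 0.10 and 0.10 in sgN6AMT1 went with -1.16, -3.57 and -4.29. Replicates 1 and 2 of sgCtrl were nearly equal (-0.067 and -0.072), as were replicates 2 and 3 of sgN6AMT1 (0.102 and 0.100). The library sgCtrl replicate 3 had the lowest mt-DNA-encoded share of counts of the sgCtrl group (3.21%, against 5.26% and 4.38%) and the highest nuclear medians of complexes II to V. In sgN6AMT1 the mt-DNA-encoded shares were 1.92%, 0.816% and 0.461%. The medians of complex II, which has no mt-DNA-encoded subunit, rose in the same order of libraries. They were -0.20, -0.08 and 0.20 in sgCtrl and -0.03, 0.18 and 0.33 in sgN6AMT1. The order was therefore not particular to complexes with mt-DNA-encoded subunits, and its cause was not tested. The libraries fall into 2 separate groups of 3, so no correlation is given.

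The 7 complex IV assembly factors, which make heme A or deliver copper or build the core, had 4 positive and 3 negative log2 fold changes (median 0.10) and 0 calls. SURF1, an early assembly factor at chr9:133351758-133356676 (minus strand), had the highest, with 5.38, 11.5 and 9.43 cpm in sgCtrl and 12.6, 25.0 and 21.1 cpm in sgN6AMT1. The groups did not overlap, and the log2 fold change was 1.22 ± 0.39 (2.33-fold, adjusted p = 0.0511). The raw counts behind these levels were 4, 10 and 8 with control sgRNAs and 12, 137 and 82 with sgRNAs against N6AMT1. SURF1 passed the threshold without sgN6AMT1 replicate 1 (edgeR adjusted p = 0.0243), without a filter on low counts (0.0274) and with the newer quasi-likelihood method (0.0470). It moved away from the threshold without sgN6AMT1 replicate 2 (0.203), without sgCtrl replicate 1 (0.188) and with the deep libraries thinned (0.437). With DESeq2 its adjusted p was 0.151. At 4 to 10 counts the sgCtrl level is imprecise. COX11, which delivers copper to the MT-CO1 site, had the lowest, with 32.3, 26.5 and 33.0 cpm in sgCtrl and 20.0, 30.1 and 25.7 cpm in sgN6AMT1 (log2 fold change -0.22 ± 0.27, adjusted p = 0.651). The copper chaperones SCO2 and COX17 were at 0.64 and 0.44 with intervals reaching past 1, and SCO1 was at -0.16. The value of COX17 moved to 0.051 without sgN6AMT1 replicate 2, 0.71 without sgN6AMT1 replicate 3 and 0.26 without sgCtrl replicate 2. The heme enzymes COX10 and COX15 were at -0.16 and 0.10. In 2 of the 3 sgN6AMT1 libraries the median of the 7 factors was above all sgCtrl libraries, and in replicate 1 it was below them.

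Beyond the 48 genes, 44 other genes of these complexes were listed, 11 other subunits or isoforms and 33 other assembly factors. Of the 31 that passed the filter, 1 was called (3.23%, against 9.85% of all genes tested). An unadjusted p under 0.05 was reached by 10 (32.3%, against 26.2%), 4 higher and 6 lower. The groups did not overlap, with sgN6AMT1 higher, for 3 of the 31 (9.68%, against 15.1% of all genes tested). They did not overlap, with sgN6AMT1 lower, for 6 of the 31, against 14.1% of all genes tested. These counts were not tested. The call was COX20, a chaperone of newly made MT-CO2, which had 69.9, 80.8 and 61.3 cpm in sgCtrl and 39.0, 43.1 and 26.7 cpm in sgN6AMT1. COX20 fell by 0.97 on the log2 scale (edgeR adjusted p = 0.0138) without overlap, and was not called without sgCtrl replicate 2 (adjusted p = 0.100) or with the deep libraries thinned (0.0573). NDUFA4, a subunit of complex IV despite its name, had 187, 181 and 347 cpm in sgCtrl and 282, 349 and 388 cpm in sgN6AMT1, a log2 fold change of 0.52 ± 0.21 (adjusted p = 0.116), with sgCtrl replicate 3 high as for COX7A2. UQCRHL, a close copy of UQCRH, was at 0.44 ± 0.22 (adjusted p = 0.204), and how reads shared by the copies were counted is not given. The small ATP synthase subunits USMG5 and C14orf2 were at -0.23 and 0.31. The tissue isoforms COX4I2, COX6A2, COX6B2, COX7A1 and COX8C had 0 counts in all 6 libraries, each of which allows up to 3 counts, whereas their widely expressed counterparts COX4I1, COX6A1, COX6B1, COX7A2 and COX8A are among the 48. COX7B2 had at most 7 counts and ATP5L2 at most 14.

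Base composition went along with the fold changes. Over the 48 genes the log2 fold change and the GC content of the transcript had a Pearson r of 0.43 and a Spearman rho of 0.41, and over 8154 nuclear genes tested the values were 0.23 and 0.26. The points share their libraries, and genes are not independent replicates. The median GC content was 47.2% for the 33 genes with a positive log2 fold change and 44.8% for the 15 with a negative one. After a correction of each library for GC content and length, 45 of the 48 genes kept their sign, the medians of complexes II, III, IV and V were 0.16, 0.26, 0.19 and 0.01, and that of the F1 genes was 0.15. ATP5E and ATPIF1 were then called, as were 919 of all 8324 genes tested. Exons of ATP5E, ATP5I, ATP5J, COX11, COX15, SCO2 and UQCRQ overlap another gene on the opposite strand and those of ATP5J2, ATP5L, ATP5O, COX6A1, COX15, SCO2, SDHA, SDHD and UQCR11 one on the same strand (GENCODE annotation). Whether counting used the strand is not given in the sources used here, so the counts of these genes are less certain.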

How the data were processed

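RNA-Seq was analysed for 3 sgCtrl and 3 sgN6AMT1 libraries of K562 cells, grouped and numbered by their labels. The authors trimmed reads with cutadapt (minimum length 15, quality cutoff 2), aligned the rest to GRCh38 with HISAT2 in its default setting, and overlapped alignments with the release 84 annotation. They deposited raw counts per gene without normalization. The counting tool, its strand setting and its handling of multimapped reads are not given in the sources used here. The labels name polyA RNA, and the protocol names an rRNA-depleted stranded total RNA kit.

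From the counts, genes were filtered with filterByExpr, normalized by TMM and tested with the quasi-likelihood test of edgeR 4.0.16 (R 4.3.3) over the 6 libraries without covariates. This left 8324 genes, and p-values were adjusted by Benjamini-Hochberg over all of them at a threshold of 0.05. The SE is the log2 fold change over the root of F, and 95% intervals use the degrees of freedom of the fit. Relative medians use log2 cpm with a prior count of 2. Coding lengths, positions and GC content came from GENCODE v44 (GRCh38), and promoter windows from RefSeq (GRCh38.p14). The fit was tested on simulated data. With 3 libraries per group, the p-values measure the spread between these transductions.

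All 48 genes are accounted for. Those given in full are the complex II subunits, genes with an unadjusted p under 0.05, the highest and lowest of each group by log2 fold change, the highest per length of each complex, the subunit c genes and the mt-DNA-encoded partners, with UQCRFS1, ATP5B and ATP5J2 added after their values were seen. The genes and lists were chosen with earlier results of these data known. A further K562 marker of those lists is not reported here. Alternatives were DESeq2 1.42.0, RLE size factors, total counts, normalization without mt-DNA-encoded genes, other filters, a replicate block, a correction for GC content and length with and without the block (values for 8154 genes, 98.0%; splines with 5 degrees of freedom), thinning of the deep libraries to 858710 counts, the newer quasi-likelihood method and each library left out.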

Additional observations from a re-analysis of the deposited data

How the results depend on the processing

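The medians of complex II (0.20) and of complexes III to V (0.24) kept their sign under every alternative run, with the latter lowest at 0.15 after correcting for GC content and length. Their difference of -0.04 stayed within the spread between replicates but did not keep its sign: it was 0.010 with that correction, 0.019 with the correction and the replicate block, 0.0053 with thinned libraries and 0.0099 without sgCtrl replicate 1. The count of calls among the 48 genes was 0 and stayed at 0 with DESeq2, RLE size factors, total counts, normalization without mt-DNA-encoded genes, 10 counts in every library (47 genes tested, SURF1 left out) and thinned libraries. It was 5 without a filter on low counts (ATPIF1, COX7A2, COX8A, CYC1 and SURF1). There 1201 of the 13874 genes tested were called and the median of all genes shifted to 0.12. It was 2 after correcting for GC content and length (ATP5E and ATPIF1), where 919 of all 8324 genes were called. It was 1 with the newer quasi-likelihood method (SURF1), where 839 of all 8324 were called. It was 9 at an unadjusted p under 0.05 and 0 to 4 with each library left out. Except for the unadjusted p, the cause was not tested. Over all genes the calls, 820, went to 98 with thinned libraries, where counts are fewer, and to 220 to 951 with each library left out, the lowest being without sgCtrl replicate 2.

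With the replicate block the calls among the 48 were 6 (ATP5A1, ATPIF1, COX7A2, COX8A, CYC1 and SURF1) and over all genes 1195, and with the block and that correction together they were 6 (ATP5A1, ATP5E, ATP5J2, ATPIF1, COX7A2 and UQCRFS1) and 1370. The libraries share only a number: deviations of same-numbered libraries correlated at -0.00052, 0.083 and 0.190, and 3 of the 6 correlated best with their own number. With libraries left out, the log2 fold change of SDHA ranged from -0.0072 to 0.27 and that of SDHC from -0.68 to 0.029. Depth limits SURF1 and the other assembly factors, whose sgCtrl libraries hold few counts.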
